A study of Mus musculus with 8 samples.

Results

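Molecular chaperones of the cytosol and of the endoplasmic reticulum (ER), with a pair of transcription factors of the ER stress response, were followed in mouse hippocampus after status epilepticus, a prolonged seizure state. The genes were taken by symbol and comprised 10 of the 20258 gene symbols in the deposited table, on 11 RefSeq transcripts. They were 6 cytosolic chaperone genes (Hspa1a, Hspa1b, Hspa8, Hsp90aa1, Hspb1 and Dnajb1), 2 ER chaperone genes (Hspa5 and Hsp90b1) and 2 transcription factor genes of the unfolded protein response (UPR; Xbp1 and Ddit3). The tissue came from C57BL/6 mice, both hippocampi being removed at time zero for controls, or 12 h, 10 d or 6 wk after induction of status epilepticus (SE). Each of the 4 groups had 2 poly(A) RNA libraries, and each library pooled cDNA of 2 animals. The sources used here do not give the agent that induced SE, what the controls received, or the age and sex of the mice.

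Heat shock proteins of the cytosol bind unfolded protein chains, and their inducible members are switched on by the transcription factor HSF1 when unfolded protein accumulates. In the ER, the corresponding chaperones are under the UPR, in which the sensors IRE1, PERK and ATF6 signal to factors such as XBP1, ATF4 and CHOP. Both systems are known to respond to seizures and other stress in neurons, and several of the chaperones are abundant in unstressed neurons.

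For mRNA the authors' deposited table held, per transcript and time, the fold against control, written with a minus sign where the level was lower, and its q-value, each as a mean. Multiplied by 4, 100% of the folds at each time were whole at the 6th decimal (within 0.02 of its unit), and 2 SE and 2 control libraries form 4 pairs, though the averaging is not described. Such values belong to no library and carry no SD. Calls of higher or lower needed a mean q under 0.05 together with a mean fold no smaller than 1 in either direction, both averaged over a gene's transcripts. Genes that passed on q with a smaller mean fold were called mixed, because a mean of signed folds, if each is at least 1 in size, falls below 1 only when some go opposite ways or are missing. Since the libraries came from whole hippocampi, fewer cells of a type and less RNA per cell cannot be told apart. The 3 comparisons share the control libraries, so their values stand side by side and are not independent of each other.

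Hspa8 was higher at every time, while Hspa1a and the ER chaperone gene Hsp90b1 were lower at every time. At 12 h, 1 of the 10 genes was higher and 2 were lower, against 9.79% of 16807 genes with a fold higher and 7.27% lower in the authors' deposited table. At 10 d, 3 were higher, 3 lower and 1 mixed, where 7.6%, 11% and 3.4% of 17244 genes were higher, lower and mixed in the authors' deposited table. At 6 wk, 2 were higher, 2 lower and 2 mixed, with 9.32%, 11.7% and 3.6% of 15820 genes higher, lower and mixed in the authors' deposited table. The median of the 10 mean folds was -0.34, -0.91 and 0.02 at 12 h, 10 d and 6 wk, against 0.57, 0.70 and -0.73 over all genes with a fold in the authors' deposited table. Cytosolic genes went both ways at each time, with 1 higher and 1 lower of 6 at 12 h, 1 and 2 at 10 d, and 2 and 1 at 6 wk. The ER pair gave 0 higher and 1 lower of 2 at each time, and the pair of UPR factors gave 2 higher at 10 d and no higher or lower call at 12 h or 6 wk. Differences between the cytosolic and the ER genes were not tested.

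**Figure D1:**
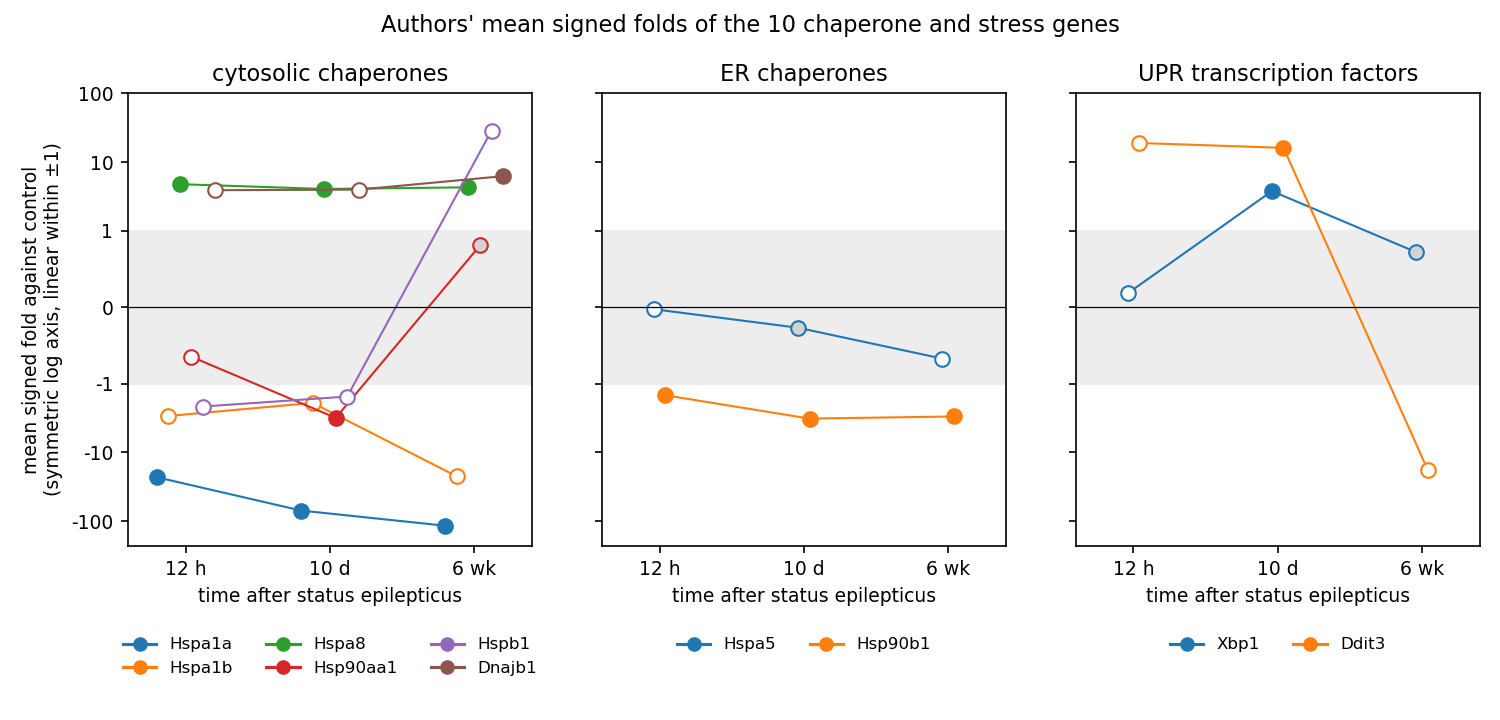
Mean signed fold against control (symmetric log axis, linear within ±1, shaded) at 12 h, 10 d and 6 wk for each gene, from the authors' deposited table. Filled points were called higher or lower, grey points were mixed and open points did not pass; Hspa8 lies at 4.08 to 4.79 at all times, and Hspa1a reaches -117 at 6 wk.

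Among the cytosolic chaperones, Hspa8 and Hspa1a, which encode closely related Hsp70 proteins, changed in opposite directions. Hspa8 encodes the constitutive Hsp70 family member Hsc70, which also uncoats clathrin vesicles at synapses (NM_031165, chr9:40609356-40613282, plus strand, mm9). Its mean fold was 4.79 at 12 h (mean q 1.21e-15), 4.08 at 10 d (mean q 1.69e-12) and 4.31 at 6 wk (mean q 1.03e-11) in the authors' deposited table. The values for Hspa8 thus differed little between times and lay in the upper range of all genes, with 82.4%, 79.1% and 81.0% of genes lower.

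Hspa1a encodes the stress-inducible Hsp70 (NM_010479, chr17:35106304-35109101, minus strand, mm9). In the authors' deposited table its mean fold was -23.0 at 12 h (mean q 3.42e-07), -70.4 at 10 d (mean q 1.18e-06) and -117 at 6 wk (mean q 1.13e-06). In size this fold exceeded that of 92.8%, 98.1% and 99.4% of genes. Hspa1b encodes the same inducible protein from a neighbouring gene on the same strand (NM_010478, chr17:35093374-35096183), 10120 bases away. From the authors' deposited table, Hspa1b stood at -2.96 (mean q 0.426), -1.91 (mean q 0.507) and -22.5 (mean q 0.116), negative like Hspa1a but without passing at any time.

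Reads had to map uniquely to be counted, per the series' design text, which bears on these 2 genes. Of the 32-base windows of the Hspa1a transcript, 64.2% also occur in Hspa1b, and 67.0% of those of Hspa1b occur in Hspa1a. A read lying wholly in shared sequence would not have been counted for either gene. Among the windows of a transcript that were found in mm9, the share found only once was 34.1% for Hspa1a, 31.8% for Hspa1b, 18.1% for Hspa8, 23.6% for Hsp90aa1 and 32.04% for Hspb1. It was 98.3% for Dnajb1, 100% for Hspa5, 95.7% for Hsp90b1 and 100% for both Xbp1 and Ddit3. For Hsp90aa1 and Hspb1, 0 windows were absent from mm9, so windows over exon junctions were found there too. A window found once can therefore lie outside the gene. Hspa8 had 57 windows absent from mm9, and whether others over its junctions were found there was not checked. Thus 5 of the 6 cytosolic genes, and neither ER gene, had most of their exon sequence in further copies, and the part of this in their folds was not tested.

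**Figure D2:**
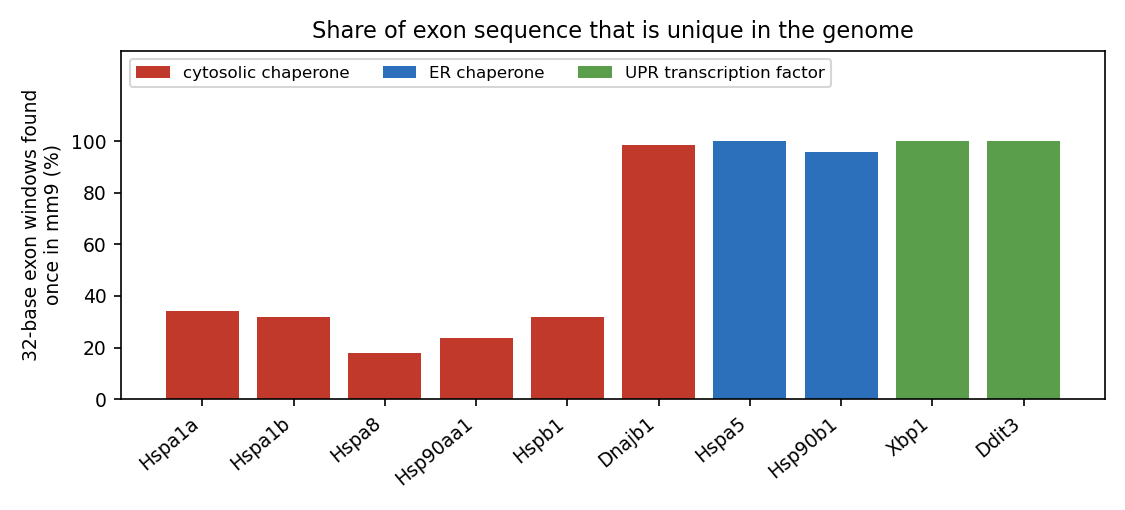
Share of 32-base windows of each gene's longest annotated coding transcript that occur once in the mm9 genome, among windows found there (bars, %, axis from 0). Hspa8 has the lowest share at 18.1%, and the 4 genes of the ER chaperones and UPR factors lie between 95.7% and 100%.

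Hsp90aa1 encodes the inducible cytosolic Hsp90, which holds kinases and steroid receptors in an activatable state (NM_010480, chr12:111929246-111934605, minus strand, mm9). In the authors' deposited table it stood at -0.65 at 12 h (mean q 0.199), was lower at 10 d with -3.15 (mean q 0.000107), and was mixed at 6 wk with 0.81 (mean q 0.00842). Dnajb1 encodes Hsp40, a J-domain protein that delivers clients to Hsp70 and stimulates its ATPase (NM_018808, chr8:86132074-86135801, plus strand). Its mean folds of 3.92 (mean q 0.145) at 12 h and 3.99 (mean q 0.217) at 10 d did not pass, and it was higher at 6 wk with 6.26 (mean q 0.00902) in the authors' deposited table. All 3 of its mean folds were positive, and the one that passed was the largest of them.

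Hspb1 encodes the small heat shock protein Hsp25, which holds unfolded proteins and stabilises actin and, in the injured brain, is known from reactive astrocytes (NM_013560, chr5:136363789-136365433, plus strand). It did not pass at any time, with -2.16 (mean q 0.862), -1.54 (mean q 0.689) and 28.9 (mean q 0.475) at 12 h, 10 d and 6 wk in the authors' deposited table. The largest of these mean folds, at 6 wk, thus stood beside a q far above the threshold.

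Between the ER chaperones, Hsp90b1 was lower at each time, and Hspa5 had mean folds below 1 in size throughout. Hsp90b1 encodes GRP94, the Hsp90 of the ER (NM_011631, chr10:86153586-86168189, minus strand, mm9). Its mean fold was -1.48 at 12 h (mean q 0.00251), -3.23 at 10 d (mean q 0.000693) and -3.01 at 6 wk (mean q 2.28e-12) in the authors' deposited table. Hspa5 encodes BiP, the Hsp70 of the ER that also restrains the UPR sensors (chr2:34627610-34632049, plus strand), on the transcripts NM_001163434 and NM_022310. The authors' deposited table gave it -0.03 at 12 h (mean q 0.203), -0.27 at 10 d (mean q 0.00625), a mixed call, and -0.67 at 6 wk (mean q 0.155). At 12 h its transcripts had mean folds of -0.0261 and -0.0247, and at the other times both transcripts shared a single value.

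The promoters of both ER genes carried the letters of the ER stress response element, the site that ATF6 and NF-Y are known to bind together. They are shown because both hold this element. RefSeq sequences of build GRCm38.p6, from 250 bases before to 50 after the start site, were matched for 8 of the 10 genes, all but Hspa8 and Hsp90aa1. The Hspa5 promoter is chr2:34771840-34772139 on the plus strand and that of Hsp90b1 is chr10:86705395-86705694 on the minus strand. Both are written 5′ to 3′ in gene direction, with matches to the element, CCAAT and CCACG with 9 bases of any kind between them on either strand, in capitals.
Hspa5: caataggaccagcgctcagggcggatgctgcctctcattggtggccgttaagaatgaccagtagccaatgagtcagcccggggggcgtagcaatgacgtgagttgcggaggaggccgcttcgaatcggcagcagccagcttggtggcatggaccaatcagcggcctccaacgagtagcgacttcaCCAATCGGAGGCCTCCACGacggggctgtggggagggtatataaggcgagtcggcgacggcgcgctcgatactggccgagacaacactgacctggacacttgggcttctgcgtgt
Hsp90b1: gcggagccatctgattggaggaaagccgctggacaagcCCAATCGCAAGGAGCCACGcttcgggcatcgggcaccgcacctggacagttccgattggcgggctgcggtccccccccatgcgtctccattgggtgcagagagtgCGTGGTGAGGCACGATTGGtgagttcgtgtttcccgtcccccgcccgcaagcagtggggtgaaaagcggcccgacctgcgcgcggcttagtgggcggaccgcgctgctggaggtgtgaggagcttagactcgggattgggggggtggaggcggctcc
Hspa5 had 1 match, from position -65 to -47, and Hsp90b1 had 2, from -212 to -194 in gene direction and from -107 to -89 on the opposite strand. Of 27025 promoters of this length, 0.13% held the element, and among the 8 matched it was found in these 2 alone. The heat shock element, taken as 3 alternating GAA and TTC triplets with 2 bases of any kind between neighbours, was found in 0 of the 8 and in 0.529% of all promoters. The UPR element TGACGTGG and the full cAMP response element TGACGTCA were also found in 0 of the 8, with 0.607% and 1.88% of all promoters holding them. All were searched on both strands, and the full cAMP element and the UPR element each contain the TGACG core considered next. Absence says only that these letters do not stand in this window.

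The deposited table also listed regions named for CREB, a transcription factor activated by neuronal activity and cAMP, in 3 lists with a height whose scale is not given. The labels describe no such assay. The offsets listed with these regions equal the distance to a small RNA region within 2 bases in 100% of cases. They were thus measured from small RNA regions and not from genes. By their own coordinates on mm9, listed regions covered the start sites of Hspa5 and Hsp90aa1. At Hspa5 the heights, which are the authors' values, were 24, 240 and 259 in the lists of 413, 1173 and 1236 regions, higher than 96.6%, 99.1% and 99.1% of each list. At Hsp90aa1 they were 9, 38 and 41, higher than 44.1%, 83.1% and 82% of each list. The Hspa5 regions in the lists of 1173 and 1236 had nearly the same coordinates (chr2:34626936-34627686 and chr2:34626938-34627688). How the lists relate is not given, so these heights may not be separate observations. Across all genes, 0.637%, 1.94% and 2.02% had a start site in a listed region. These shares are over 20258 genes with or without a small RNA region, whereas Hspa5 and Hsp90aa1 each hold such a region. The share among genes with a small RNA region was not computed. Hsp90b1 had listed regions of height 7 or 8 inside the gene, at least 10832 bases from its start site. Regions printed beside Xbp1, Dnajb1, Hspb1, Hspa1a and Hspa1b in the table belong to small RNA outside these genes and were not counted for them. All 300 bases of the Hspa5 promoter, found once in mm9, lay in the region of each list, with the TGACG core of a cAMP element from -157 to -153. That core occurs in 21% of all promoters and in 3 of the 8 examined (Hspa5, Hspb1 and Dnajb1).

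**Figure D3:**
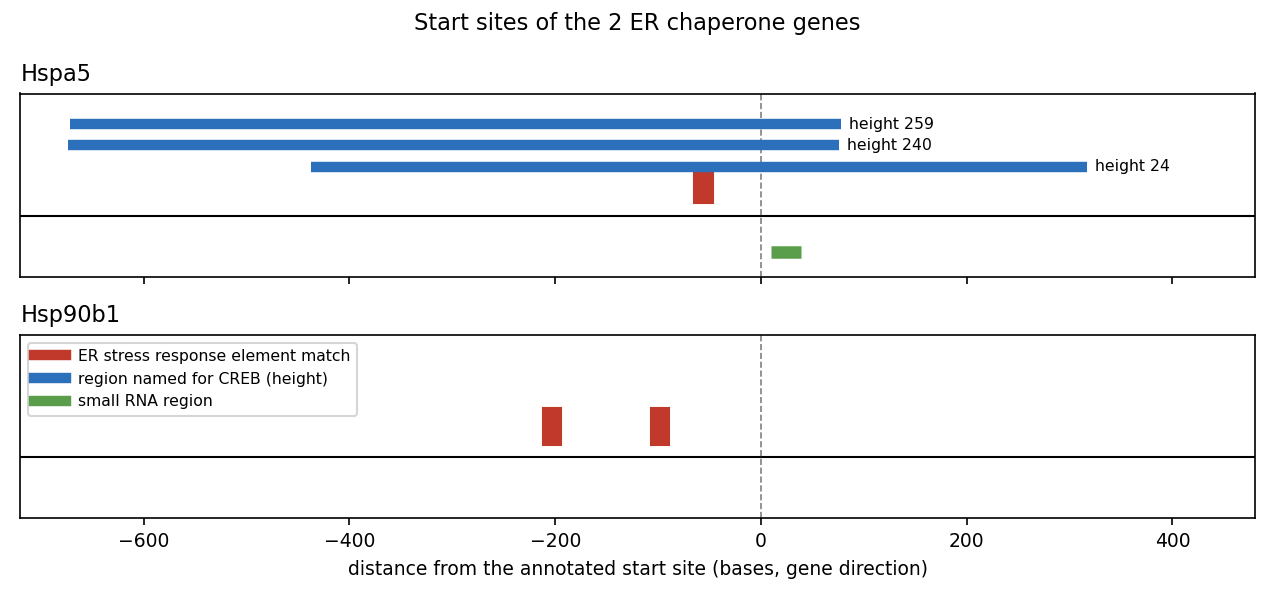
Start sites of Hspa5 and Hsp90b1 on an axis of bases from the annotated start site in gene direction, with matches to the ER stress response element (red), regions named for CREB that cover the start site with their heights (blue) and small RNA regions (green). Hspa5 shows 1 match and 3 CREB regions of height 24 to 259, and Hsp90b1 shows 2 matches and none of the other features in this window.

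The UPR transcription factors were both higher at 10 d, Ddit3 with a mean q that a limit of 0.01 would not pass. Xbp1 encodes the factor made active when IRE1 splices its mRNA, an event that gene counts do not show (NM_013842, chr11:5420970-5425875, plus strand, mm9). In the authors' deposited table its mean fold was 0.18 at 12 h (mean q 0.170), 3.80 at 10 d (mean q 8.66e-16) and 0.72 at 6 wk (mean q 0.000545), where it was mixed. Ddit3 encodes CHOP, the factor associated with cell death under lasting ER stress (NM_007837, chr10:126727849-126733344, plus strand). From the authors' deposited table, Ddit3 stood at 19.0 at 12 h (mean q 0.370), was higher at 10 d with 16.2 (mean q 0.0113), and stood at -18.1 at 6 wk (mean q 0.436). Its mean folds at 12 h and 6 wk were as large as that at 10 d and did not pass.

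Small RNA gave another readout for 4 of the genes, with values per library. The deposited table listed counts of small RNA tags in 7250 regions for 8 libraries, 2 at each time by their column names, and 9 regions in all lay inside Hspa8, Hsp90aa1, Hspa5 and Hsp90b1. The sources used here do not say how these libraries were prepared or whether they came from the same pools of animals, so a p-value reflects only how these libraries varied. They held 460586 to 2534199 tags in all listed regions, the total to which CPM values were scaled, and 3 tags equal 6.51 to 1.18 CPM, a limit for counting error only. Nearest regions to the other 6 genes lay 4118 to 313001 bases away and were left out.

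All 5 regions in Hspa8 fell on Snord14c, Snord14d and Snord14e, annotated snoRNAs in its introns, which are of the U14 family and guide ribosomal RNA processing and methylation. Their sequences, from the mm9 genome at chr9:40611666-40611751, chr9:40612078-40612163 and chr9:40612831-40612920 on the plus strand, are shown because the tags of this host gene come from them. Capitals mark the bases inside a small RNA region.
Snord14c: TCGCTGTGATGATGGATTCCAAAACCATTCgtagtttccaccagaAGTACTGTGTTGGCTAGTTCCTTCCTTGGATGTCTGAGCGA
Snord14d: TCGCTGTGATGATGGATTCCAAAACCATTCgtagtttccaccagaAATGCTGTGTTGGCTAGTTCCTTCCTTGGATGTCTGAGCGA
Snord14e: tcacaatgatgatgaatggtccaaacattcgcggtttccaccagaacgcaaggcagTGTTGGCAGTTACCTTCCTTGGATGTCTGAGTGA
Snord14c and Snord14d are identical at 97.7% of 86 aligned bases, so tags from one can match the other, and how such tags were assigned is not given. Snord14e is identical to each of them at 79.6% of aligned positions. Tags in the 5′ regions of Snord14c and Snord14d were few, with 0 to 8 and 0 to 4 per library, and the region of Snord14e had 0 to 5.

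The 3′ region of Snord14c (chr9:40611711-40611752) held 16 to 129 tags per library. Scaled with TMM factors, it had 60.6 and 58.8 CPM in control libraries, 57.0 and 54.3 at 12 h, 55.9 and 33.5 at 10 d, and 34.1 and 36.9 at 6 wk. With these factors, both 6 wk libraries lay below both control libraries, and so did both libraries of each other time. Of the 10 d libraries, 1 was close to control and the other near the 6 wk values. Without TMM factors, a 12 h library at 57.5 CPM lay above a control library at 56.9 CPM. The mean with TMM factors was 35.5 ± 1.96 CPM at 6 wk and 59.7 ± 1.23 CPM in control (SD, n = 2 each). This gave a log2 fold of -0.75 (standard error 0.28). By edgeR's quasi-likelihood test over 2048 regions this did not pass, with an adjusted p of 0.178 and an unadjusted p of 0.0381. At 12 h the log2 fold was -0.10 (standard error 0.28, edgeR adjusted p 1) and at 10 d -0.40 (standard error 0.28, edgeR adjusted p 0.663). At 6 wk, 1.32% of regions were lower and 8.94% higher at an adjusted p under 0.05, at 10 d 0.293% were lower and 4.1% higher, and at 12 h 0% were called in either direction (155 of 2048 had an unadjusted p under 0.05).

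The 3′ region of Snord14d (chr9:40612123-40612164) had 22.2 and 12.3 CPM in control libraries, 15.3 and 8.00 at 12 h, 11.2 and 10.5 at 10 d, and 13.2 and 8.93 at 6 wk. Only the 10 d libraries lay wholly below control here, and the 12 h and 6 wk libraries overlapped it. Log2 folds were -0.60 (standard error 0.52, edgeR adjusted p 0.821) at 12 h and -0.65 (standard error 0.52, edgeR adjusted p 0.671) at 10 d. The 6 wk value was -0.63 (standard error 0.51, edgeR adjusted p 0.485). Summed over all 5 regions and without TMM factors, Snord14 tags stood at 90.3 and 78.1 CPM in control, 78.5 and 64.7 at 12 h, 70.1 and 49.9 at 10 d, and 52.4 and 52.3 at 6 wk. The host gene itself had mean folds of 4.79, 4.08 and 4.31 at these times in the authors' deposited table, from another kind of library.

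**Figure D4:**
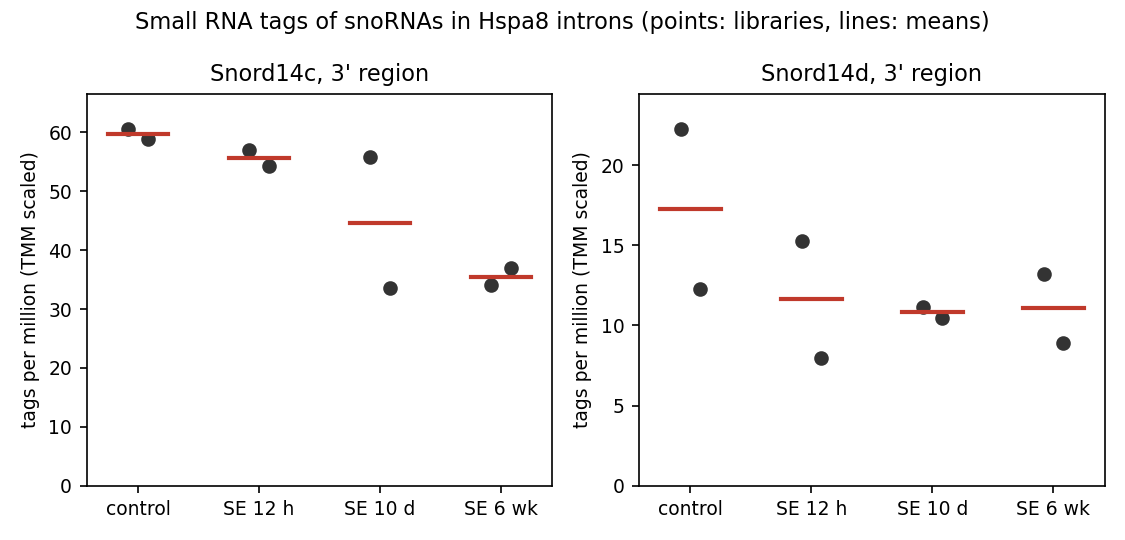
Small RNA tags (CPM with TMM factors) in the 3′ regions of Snord14c and Snord14d for control, 12 h, 10 d and 6 wk (points, 2 libraries per group; red lines, means; axes from 0). Snord14c averages 35.5 at 6 wk and 59.7 in control, and neither region passed the test at any time.

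In Hspa5, a region of 30 bases began 10 bases after the start site, inside the 5′ UTR (chr2:34627620-34627649, mm9), with ccgagacaacactgacctggacacttgggc as its sequence. It held 3 and 6 tags in control libraries, 6 and 9 at 12 h, 11 and 1 at 10 d, and 4 and 12 at 6 wk. In Hsp90aa1, a region in the coding sequence (chr12:111933589-111933612) held 1 and 4 tags in control libraries, 1 and 2 at 12 h, 9 and 3 at 10 d, and 9 and 8 at 6 wk. In CPM without TMM factors, the 10 d libraries (4.71 and 6.51) and the 6 wk libraries (7.14 and 4.92) lay above the control libraries there (1.25 and 3.39). The higher 10 d value rests on 3 tags. In Hsp90b1, a region in a coding exon (chr10:86157220-86157261) held 2 and 2 tags in control libraries, 2 and 5 at 12 h, 3 and 1 at 10 d, and 8 and 8 at 6 wk, and also overlaps the noncoding gene 1810014B01Rik. Its 6 wk libraries, at 6.35 and 4.92 CPM without TMM factors, lay above the control libraries at 2.51 and 1.70 CPM. The other region in a coding exon of Hsp90b1 (chr10:86158598-86158619) held 1 and 8 tags in control libraries, 0 and 2 at 12 h, 6 and 0 at 10 d, and 5 and 4 at 6 wk. Scaled without TMM factors, its 12 h libraries at 0 and 0.79 CPM lay below the control libraries at 1.25 and 6.79 CPM, on few tags. At 10 d and 6 wk its CPM values overlapped control. None of these 4 regions, nor the 3 other Snord14 regions, passed the filter on low counts, so their differences were not tested.

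Wider lists of chaperone and UPR genes, all but that of the TRiC chaperonin, also held genes of both directions at some time. Among 26 other cytosolic chaperone, cochaperone and heat shock factor genes, 7 were higher and 4 lower at 12 h, 2 and 10 at 10 d, and 2 and 8 at 6 wk in the authors' deposited table. These are 26.9%, 7.69% and 7.69% of the list higher, where 9.79%, 7.6% and 9.32% of all genes were, and 15.4%, 38.5% and 30.8% lower, where 7.27%, 11% and 11.7% of all genes were. The median mean fold of this list was 1.25, -1.72 and -2.15 at the 3 times, beside 0.57, 0.70 and -0.73 over all genes in the authors' deposited table. Hsph1, an Hsp110 that exchanges nucleotide on Hsp70, was higher at 12 h with 1.48 (mean q 1.00e-14) and lower at 10 d with -1.94 and at 6 wk with -2.64 (mean q 9.82e-16) in the authors' deposited table. Ahsa1, an activator of the Hsp90 ATPase, was lower at each time with -2.42, -3.10 and -3.87, and the J-domain gene Dnaja1 at 12 h with -2.05 and at 10 d with -4.14, in the authors' deposited table. At 10 d, the authors' deposited table had the Hsp70 cochaperone gene St13 lower at -6.20 (-3.90 at 6 wk, also lower), while the small heat shock gene Cryab (3.01 at 12 h, also higher) and the Hsp70 to Hsp90 adaptor gene Stip1 were higher at 5.73 and 4.92. Hsp90ab1, the constitutive cytosolic Hsp90, was lower at 12 h with -1.31 and at 6 wk with -1.66 (mean q 9.82e-16) in the authors' deposited table.

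Among 8 subunits of the TRiC chaperonin, which folds actin and tubulin, 0 were higher at any time, and 1, 2 and 0 were lower at 12 h, 10 d and 6 wk in the authors' deposited table. The lower ones are 12.5%, 25% and 0% of the list, beside 7.27%, 11% and 11.7% of all genes, shares that differ by about 1 gene in a list of 8. These were Cct7 at 12 h (-1.67) and Cct3 and Cct6a at 10 d (-2.02 and -2.76) in the authors' deposited table. Mitochondrial chaperones and proteases gave 1 higher and 1 lower of 8 at 12 h and at 10 d, and 2 higher and 3 lower at 6 wk in the authors' deposited table. At 12 h and 10 d this is 12.5% in each direction, near the 9.79% higher and 7.27% lower, and the 7.6% and 11%, of all genes, and at 6 wk it is 25% higher and 37.5% lower, beside 9.32% and 11.7% of all genes. The matrix protease gene Lonp1 was lower at each time, with -1.93, -2.85 and -23.2, and the mitochondrial J-domain gene Dnaja3 higher, with 65.1, 23.3 and 56.5, in the authors' deposited table. Hspa9, the mitochondrial Hsp70, was lower at 6 wk with -2.12 (mean q 5.25e-05) in the authors' deposited table.

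Among 18 other ER chaperones and folding enzymes, 4 were higher and 2 lower at 12 h, 4 and 3 at 10 d, and 0 and 4 at 6 wk, where 4 more were mixed, in the authors' deposited table. The higher ones are 22.2%, 22.2% and 0% of the list, beside 9.79%, 7.6% and 9.32% of all genes, and the lower ones 11.1%, 16.7% and 22.2%, beside 7.27%, 11% and 11.7%. Mixed genes at 6 wk, Calr, Canx, Pdia3 and P4hb, were 22.2% of the list, beside 3.6% of all genes. Calr, a lectin chaperone of glycoproteins, was higher at 12 h with 1.46 (mean q 4.78e-08) and at 10 d with 1.27, and the BiP cochaperone gene Dnajb11 was lower with -6.32 (mean q 0.000213) and -47.0 at these times, in the authors' deposited table. At 10 d the disulfide isomerase genes P4hb and Pdia3 were higher with 1.95 and 1.90, and Hyou1, an ER chaperone of the Hsp110 family, with 2.06 after 4.10 at 12 h, in the authors' deposited table. Txndc5, Creld2 and Pdia6 were lower at 6 wk with -5.52, -34.1 and -3.13 in the authors' deposited table, the first also at 12 h with -1.43. Txndc5 and Pdia6 encode disulfide isomerases of the ER.

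Of 12 genes of ER associated degradation, 2 were higher and 2 lower at 12 h, 3 and 2 at 10 d, and 1 and 4 at 6 wk in the authors' deposited table. That is 16.7%, 25% and 8.33% of the list higher, beside 9.79%, 7.6% and 9.32% of all genes, and 16.7%, 16.7% and 33.3% lower, beside 7.27%, 11% and 11.7%. Vcp, the ATPase that pulls proteins out of the ER membrane, was lower at each time with -3.39, -6.80 and -5.46 in the authors' deposited table. Edem3, a mannosidase of this pathway, was lower at each time with -2.50, -10.1 and -6.58, and Syvn1, which encodes the ubiquitin ligase Hrd1, at 6 wk with -6.10, in the authors' deposited table. Among the higher genes, Edem1, of the same family as Edem3, stood at 3.54 at 12 h (mean q 5.24e-05), and Edem2 at 2.98 at 6 wk (mean q 0.0356) after a call at 10 d, in the authors' deposited table. Ube2j1, a ubiquitin-conjugating enzyme of the ER membrane, was higher at 12 h with 6.27 and at 10 d with 5.19 (mean q 0.000132) in the authors' deposited table. Among 18 genes listed as UPR sensors and effectors, 5 were higher and 3 lower at 12 h, 2 and 4 at 10 d, and 0 and 2 at 6 wk in the authors' deposited table. The higher ones make up 27.8%, 11.1% and 0% of this list, beside 9.79%, 7.6% and 9.32% of all genes, and the lower ones 16.7%, 22.2% and 11.1%, beside 7.27%, 11% and 11.7%, so that the lower share at 6 wk lay near that of all genes. Atf6, the sensor that becomes a transcription factor, was higher at 12 h with 2.83 (mean q 5.40e-14) in the authors' deposited table. Eif2a was also higher at 12 h with 5.52 (mean q 9.98e-07) in the authors' deposited table. This gene, counted here as listed, encodes the initiation factor eIF2A and not the eIF2 alpha subunit that PERK phosphorylates. The PERK gene Eif2ak3 was lower at 10 d with -13.5 (mean q 1.97e-06) in the authors' deposited table. Atf4, the factor downstream of PERK, was higher at 12 h with 2.25, at 10 d with 2.13 (mean q 0.00435) and lower at 6 wk with -6.58 (mean q 6.73e-13) in the authors' deposited table. Asns, a target of ATF4, was lower at all 3 times with -1.99, -3.19 and -2.26 in the authors' deposited table.

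**Figure D5:**
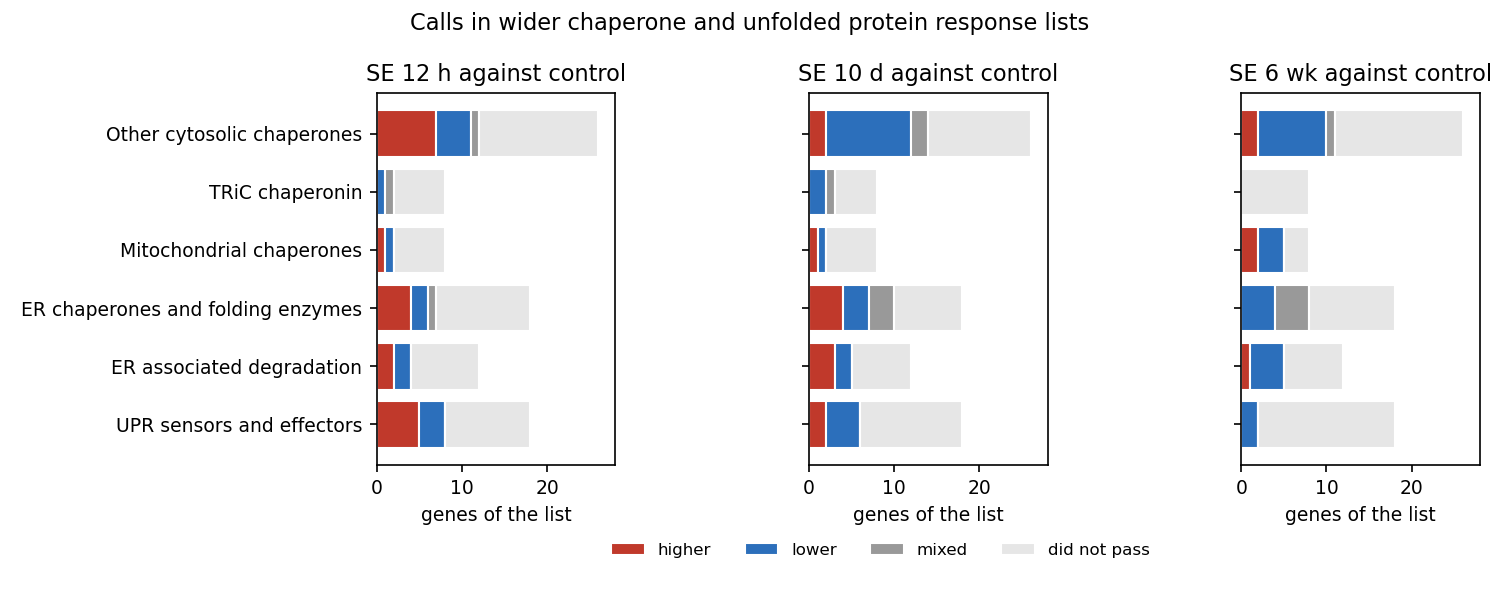
Number of genes called higher (red), lower (blue), mixed (dark grey) or not passing (light grey) in 6 lists of chaperone and UPR genes at 12 h, 10 d and 6 wk against control, from the authors' deposited table (stacked bars from 0). Other cytosolic chaperones hold 7 higher and 4 lower genes at 12 h and 2 higher and 10 lower genes at 10 d.

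Markers of cell types were also called at these times, in lists of 3 or 4 genes in which 1 gene is 33.3% or 25%, while 9.79%, 7.6% and 9.32% of all genes were higher and 7.27%, 11% and 11.7% lower at 12 h, 10 d and 6 wk. Of the 4 neuronal markers analysed here, 1 was higher and 1 lower at 12 h, 0 and 2 at 10 d, and 0 and 3 at 6 wk. Rbfox3 and Map2, also on that list, were not found by symbol in the authors' deposited table. Astrocyte markers gave 2, 1 and 2 higher of 4, with Gfap at 11.8 at 6 wk, and microglial markers 0, 2 and 2 higher of 4, with Csf1r at 3.89 at 10 d, in the authors' deposited table. Endothelial markers gave 1, 1 and 2 higher of 3, choroid plexus markers 2, 1 and 0 higher of 3, with Ttr at 558 at 10 d, and oligodendrocyte markers 0, 0 and 1 higher and 2, 0 and 0 lower of 3, in the authors' deposited table. Their part in the chaperone values was not tested, and since these are folds and not levels, the tissue could not be checked against marker levels.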

How the data were processed

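Libraries were made from polyadenylated hippocampal RNA, per the labels' protocols. Per the series' design text, Bowtie placed the reads on mm9 with default settings, and reads with a single place were counted over exons of RefSeq genes. The mRNA counts were not used here, so the depth behind an mRNA fold is unknown. The authors deposited, per transcript and time, a signed mean fold, a score below 0 for falls, and a mean q-value. The sources used here do not say how either was computed. Folds of 0 were taken as no fold. Among 29208 rows, the 96 without a gene name were dropped, and transcripts repeated on several rows were used once. No test was run on the lists.

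Small RNA tag counts per region were deposited in 8 columns, and the time in a column's name set its group. Library sizes were the tags in all listed regions, which may be less than the whole library. Another 24 library columns went unused. Regions were filtered with filterByExpr, scaled by TMM and tested with edgeR 4.0.16 (glmQLFit and glmQLFTest over all 4 groups, Benjamini-Hochberg adjustment), a test added after the table had been seen and tested on simulated data. Standard errors of log2 folds were derived from the fold and the F statistic of the edgeR test. DESeq2 1.42.0 was an alternative. CREB regions carry a height, a score the authors deposited. Gene starts in the table count from 0 (57.8% matched an annotated transcript start after adding 1, 6.23% as given) and are printed from 1. Windows of 32 bases of the longest annotated coding transcript were searched in 22 mm9 chromosomes with exact matching. Read length is not stated in these sources. Promoter sequences are from RefSeq. All 10 genes were named whatever their values, and in wider lists up to 3 called genes per list and time with the lowest mean q. For these list genes, calls of higher or lower at other times are given too, but mixed calls only in part. The 3 cell type markers with values were named after these were seen. Genes and lists were chosen with earlier results of these data known.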

Additional observations from a re-analysis of the deposited data

Results flagged for a closer look

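The authors' deposited table also held mean folds and mean q-values in columns named for 1 h and 6 h. No sample of these times is in the labels, and what they were compared with is not given, so they entered none of the comparisons above. In the column named 6 h, 7 of the 10 genes passed as higher and 0 as lower in the authors' deposited table, where 5.34% of 16144 genes with a fold were higher and 8.91% lower. The inducible Hsp70 genes stood highest, Hspa1a at 16.3 and Hspa1b at 18.2, followed by Dnajb1 at 6.94 and Hspa5 at 2.95, in the authors' deposited table. Hspa8 stood at 1.89, Hsp90b1 at 1.56 and Hsp90aa1 at 1.34 in that column of the authors' deposited table. In the column named 1 h, 4 passed as higher, Dnajb1 at 1.99, Xbp1 at 1.54, Hspa8 at 1.45 and Hsp90b1 at 1.17, and Hsp90aa1 passed as lower at -1.26, in the authors' deposited table. There, 11.3% of 16448 genes were higher and 16.1% lower. These values are given as read, and the difference between them and the later times was not tested.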

How the results depend on the processing

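Counts of genes called higher or lower at the 3 times were recomputed under 6 alternatives, and 32 of 36 recomputed counts stayed within 1.5 times. Some of the 32 could hardly move. Using the first or any transcript of a gene mattered only for Hspa5, whose transcripts had nearly the same values. Leaving out Hspa1a and Hspa1b could not change a count of higher genes, since neither was called higher. When folds under 2 in size were not called, 1 gene was lower at 12 h in place of 2, since Hsp90b1 stood at -1.48. Without Hspa1a and Hspa1b, 1 gene was lower at 12 h and 1 at 6 wk, in place of 2 each, and 2 were lower at 10 d in place of 3. With a mean q under 0.01, 2 genes were higher at 10 d in place of 3, Ddit3 losing its call. With mean q alone, 4 genes were higher at 6 wk in place of 2, the mixed genes Hsp90aa1 and Xbp1 being added. The same setting gave 4 lower genes at 10 d in place of 3, the mixed gene Hspa5 being added. For the 3′ regions of Snord14c and Snord14d, alternatives were chosen after seeing the data. They were no TMM factors, no filter, DESeq2 and leaving out each library. A left-out library of a group not compared could move a value only through scaling and the shared fit. DESeq2 gave no adjusted p for Snord14d at 12 h. With all libraries kept, no other adjusted p was under 0.05. All 66 recomputed values were negative. For Snord14c they ran from -0.14 to -0.02 at 12 h, from -0.87 to -0.07 at 10 d and from -0.83 to -0.69 at 6 wk, with adjusted p of 0.115 to 0.525 at 6 wk. For Snord14d they ran from -1.01 to -0.11, from -1.03 to -0.19 and from -1.03 to -0.18, since without 1 control library or the other the 6 wk value was -0.18 or -1.03. No paired analysis was possible because the mRNA values belong to no library and the small RNA columns share no numbers between groups; left-out mRNA libraries could not be tried for the same reason.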
